A study of Mus musculus with 32 samples.

Results

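The cytosolic ribosomal protein genes are the rows of the count table whose symbol is *Rpl* or *Rps* with a number and at most a short paralog letter, *Rplp0* to *Rplp2*, or *Rpsa*. The rule uses no measured value. It found 83 rows of 55291, 51 for the large subunit and 32 for the small subunit, and all 83 had a position in the annotation. The counts come from 32 libraries of total RNA, each from 1 C57BL/6 mouse or 1 mouse's tumor tissue. KO mice lacked *Dnase1l3*, a secreted DNase, in the whole body (labelled MUT), and WT mice carried it. Whole colon was taken untreated (D0), after 1 cycle of azoxymethane and dextran sulfate sodium with 5 days of recovery (D19), and after 3 cycles (D80), from 4 KO and 4 WT mice at each stage, and tumors were taken after 3 cycles from 3 KO and 5 WT mice. Azoxymethane (AOM, 8 mg/kg) damages DNA and starts colon tumors, and dextran sulfate sodium (DSS) in the water of the mice wounds the epithelium and brings on colitis. The labels give an age of 2 months for mice given AOM alone, and the methods give 3 months for the AOM/DSS mice.

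Cytosolic ribosomes carry nearly all of these proteins in fixed proportions, and the genes are usually expressed together. In mammals the mRNAs start with a C followed by a run of pyrimidines, the 5′ terminal oligopyrimidine (TOP) tract, through which mTOR signaling and the protein LARP1 control their translation. The genes are among the most highly expressed in the gut, where the crypts renew the epithelium quickly, and Myc raises their transcription in growing cells. Many of the genes have processed pseudogenes scattered through the genome, which makes short reads from them hard to place.

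The TOP tract was looked for at the annotated transcription starts, because it is the best known sequence feature that the family shares. RefSeq windows of build GRCm38.p6 were matched by symbol for 61 of the 83 members, with 73 windows in all, since some genes have several starts. The motif was a C exactly at the start base followed by at least 4 bases that are each C or T, read on the transcribed strand only. It stood in 14 of the 73 windows, 1 for each of 14 members (19.2%), against 2.51% of 32851 windows of all genes. The first 6 sequences below hold the tract, which is in capitals, and the other 4, from members whose values are described further down, do not. Each runs from 15 bases before the start to the first 15 bases of the transcript.
Rps6, chr4:86857353-86857382, minus strand: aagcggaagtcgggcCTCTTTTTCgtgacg
Rps18, chr17:33955651-33955680, minus strand: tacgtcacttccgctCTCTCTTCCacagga
Rplp2, chr7:141447636-141447665, plus strand: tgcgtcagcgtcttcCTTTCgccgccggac
Rps21, chr2:180257364-180257393, plus strand: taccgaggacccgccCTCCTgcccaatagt
Rpl35a, chr16:33056467-33056496, plus strand: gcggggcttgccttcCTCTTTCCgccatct
Rps27, chr3:90213634-90213663, minus strand: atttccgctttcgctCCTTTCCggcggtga
Rpl4, chr9:64173372-64173401, plus strand: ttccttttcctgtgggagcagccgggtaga
Rps12, chr10:23787195-23787224, minus strand: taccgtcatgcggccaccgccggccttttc
Rps4x, chrX:102189377-102189406, minus strand: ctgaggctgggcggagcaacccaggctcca
Rps27l, chr9:66946071-66946100, plus strand: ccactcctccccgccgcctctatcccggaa
In *Rpl4* a run of pyrimidines, ttccttttcct, lies just before the annotated base, so a missing match says only that these letters are not at the annotated position. The members' changes were set beside the tract as a description. At D80 over D0 in KO colon, the comparison with the most calls, the 14 members with a tract had a median log2 fold change of -0.72 and the 44 tested members with a window and no tract a median of -0.73.

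Shared sequence and overlap with other genes bear on the values. Of the words of 75 bases, the length of the reads, in a member's principal annotated transcript, a median of 41.3% also occurred in a transcript of another gene, with a range from 0% in 4 members, among them *Rps3*, *Rpl3l* and *Rpl39l*, to 98.5% in *Rps27*. In *Rpl5* it was 92.5%, in *Rps6* 84.1%, in *Rps12* 82.5%, in *Rplp2* 23.1%, in *Rpl4* 8.47% and in *Rps21* 6.56%. How reads that fit several places were counted is not given in the sources used here, and members with a high share are uncertain for that reason. There were 319 rows named as pseudogenes or retrogenes of 62 members. *Rps10* is the clearest case. Its own row held 1.24 to 3.45 CPM (counts scaled to library size by the TMM method) over the 32 libraries, while the row of the pseudogene *Rps10-ps2* held 183.9 to 823.9 CPM. Of the exon bases of *Rps10*, 20.6% lie under another gene on the same strand. The same is true of 47.0% of those of *Rpl24* and 35.4% of those of *Rpl13a*, and these 2 rows had means of 28.9 and 28.4 CPM. *Rpl35* (66.2%) and *Rpl23a* (59.7%) overlap genes on the opposite strand, and whether counting used strand is not given in the sources used here. Of the 83 rows, 3 are annotated as pseudogenes, namely *Rpl6l*, *Rpl32l* and *Rps4l*.

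The targeted gene came first as a check. *Dnase1l3* was counted in every library, at 1.64 to 5.02 CPM in KO and 1.79 to 3.59 in WT colon at D0, at 0.675 to 6.79 in KO and 7.29 to 8.84 in WT at D19, at 3.09 to 11.8 in KO and 3.20 to 9.05 in WT at D80, and at 3.57 to 8.50 in KO and 2.04 to 10.4 in WT tumors. The ranges overlapped except at D19, where the log2 fold change was -1.07 (SE 0.50, adjusted p = 0.44 by edgeR). Which exons the KO allele lacks is not given in the sources used here, so these counts do not check the genotype labels, and KO and WT mean libraries labelled so throughout. For this strain the paper reports much lower *Dnase1l3* expression in every intestinal segment, and KO serum that was defective in digesting DNA and chromatin. Total counts per library ranged from 18951121 to 47623288, with a median of 34333250. In 3 libraries short genes were counted more, relative to long genes, than in the rest of their group. Across 10123 genes, Spearman's rho between a library's difference from its own group and the gene's exon length was -0.66 in KO mouse 811 at D19, -0.62 in WT mouse 581 at D80 and -0.45 in the tumor of KO mouse 544. KO mouse 853 at D0 had -0.36, and the other 28 libraries lay between -0.22 and 0.46. Mitochondrially encoded mRNAs took 10.4% of the counts in mouse 811, 14.8% in mouse 581 and 7.93% in tumor 544, against 4.44% to 6.89% in the other 14 libraries of D19 and D80 and 1.5% to 4.16% in the other 7 tumors. At D0 they took 8.53% to 11.2% in KO and 7.15% to 11.3% in WT mice, so only mouse 581 lay above every D0 library. Counts and medians of members that rest on these 3 libraries are given with and without them, except where stated. The comparisons of D19 with D0 in WT mice and of D80 with D0 in KO mice hold none of the 3. KO mouse 853 is in the second of them. Since rho sets a library against its own group, it cannot show a length effect shared by a whole group. Results with each library's slope on exon length as a covariate are given below for both.

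Ribosomal protein genes took between 4.02% and 12.0% of all counts of a library. In untreated colon the share was 5.55% ± 0.73 in KO and 4.66% ± 0.48 in WT mice (SD, n = 4 each). At D19 the KO mice had 8.45%, 7.0%, 4.44% and 4.34%, and the WT mice had 4.29%, 4.43%, 4.31% and 4.09%. Mice 811 and 813 made up the high pair of KO values, while the other 2 KO mice lay among or beside the WT mice. The titles of mice 811 and 813 carry the prefix 116 and those of the other 2 KO mice, 803 and 804, the prefix 115, so within KO mice the split and the prefix, whose meaning the labels do not give, cannot be told apart. Of the WT mice at D19, mouse 812 has the prefix 116 and a share of 4.09%, mouse 805 has 115 and 4.31%, and the other 2 have 97. At D80 the KO mice had 4.45%, 4.02%, 4.29% and 4.65%, and the WT mice had 7.28%, 4.10%, 4.06% and 4.12%, so that mouse 581 alone stood high in WT. Without it the WT mean was 4.09% ± 0.03 (SD, n = 3). KO tumors had 6.25%, 6.4% and 12.0%, and WT tumors had 5.79%, 6.57%, 5.30%, 5.77% and 5.58%. Every tumor lay above 4.65%, the highest value of D80 colon outside mouse 581. Untreated colon ran from 5.08% to 6.63% in KO and from 4.36% to 5.37% in WT mice, which overlaps the tumors of the same genotype. In whole tissue, fewer cells of a type and less RNA per cell cannot be told apart. No p-value is given for these sums.

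**Figure D1:**
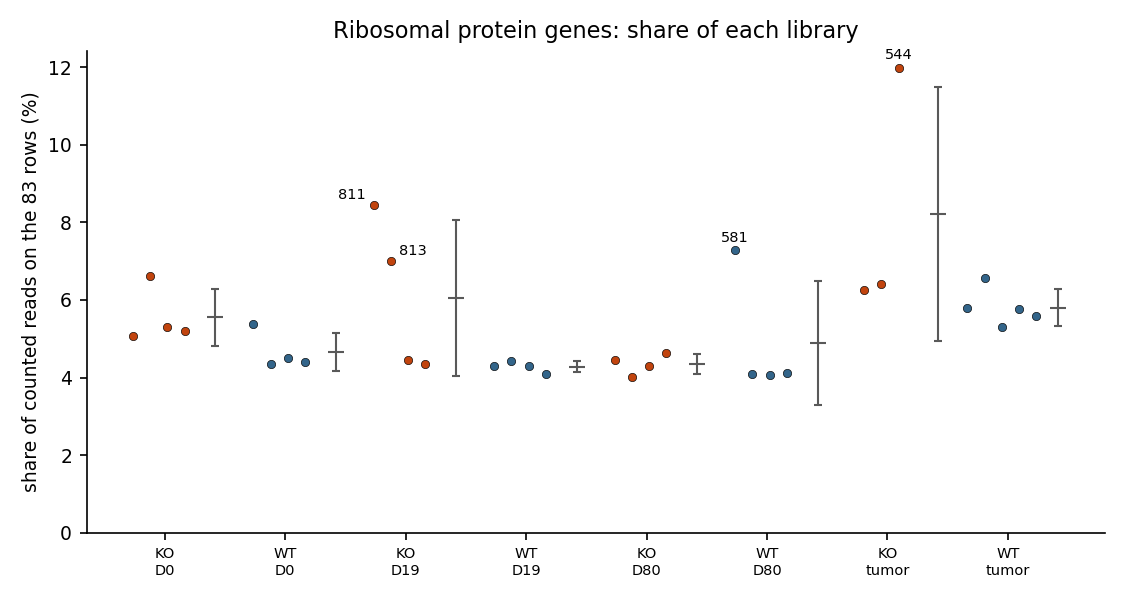
Share of all counts of a library that fell on the 83 ribosomal protein rows (%, vertical axis) by group (horizontal axis), with KO in red and WT in blue. Each point is 1 library, the bar beside it is the group mean with SD, and mouse numbers mark the 4 libraries that lie highest in their groups, at 8.45% and 7.0% (811 and 813), 7.28% (581) and 12.0% (544).

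Levels were compared between members per length of the principal transcript. The highest was *Rplp1*, a protein of the acidic stalk that recruits elongation factors, with a mean level of 2568 CPM per kb over all libraries. It was followed by *Rps12* (2139), *Rpl41* (1871), *Rps27* (1835) and *Rplp0*, the base of the stalk (1731). Of the 83 members, 76 were above 100 CPM per kb. *Rplp2*, the partner of *Rplp1* in the stalk, had 467.6 CPM per kb, and *Rpsa*, the laminin receptor protein of the small subunit, had 881.2. These levels depend on the transcript chosen, which has 964 bases for *Rplp2* and 499 for *Rplp1*. Not divided by length, the means were 451 CPM for *Rplp2* and 1281 CPM for *Rplp1*. The 5 lowest were *Rpl10l* (0.0011), *Rpl3l* (0.044), *Rpl39l* (0.049), *Rps10* (2.62) and *Rps4l* (6.36), all in CPM per kb.

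Of the paralogs with restricted expression, *Rpl10l* and *Rpl39l*, which replace *Rpl10* and *Rpl39* in male germ cells, and *Rpl3l*, which replaces *Rpl3* in heart and skeletal muscle, were nearly absent. *Rpl10l* had a level of 0 in 31 libraries and 0.036 CPM in the tumor of KO mouse 544. The highest *Rpl39l* level was 0.286 CPM, in that same tumor, and the highest *Rpl3l* level was 0.218 CPM, in WT mouse 851 at D0. Their partners had mean levels of 1101 CPM (*Rpl10*), 503.1 CPM (*Rpl39*) and 1137 CPM (*Rpl3*). These 3 paralogs did not pass the filter on low counts in any comparison, and the other 80 members passed it in all of them. *Rps27l*, which is induced by p53 in human cells, had a mean of 147.7 CPM, against 633.2 CPM for its partner *Rps27*.

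The comparison of genotypes asked whether loss of *Dnase1l3* went with another level of ribosomal protein mRNA at any stage. A member was called when edgeR's quasi-likelihood test gave an adjusted p under 0.05 over all genes tested. No member was called at any stage, and edgeR called no other gene. At D0, 0 of 80 members were called (0% of 18175 genes), and 10 members had an unadjusted p under 0.05 (9.63% of genes). The median log2 fold change of the 80 members, KO over WT, was 0.32, and 79 of the 80 values were above 0. *Rpl32*, which was furthest above the median, had 0.45 (SE 0.19, adjusted p = 0.50), and *Rps10*, furthest below it, had -0.12 (SE 0.25, adjusted p = 0.91). At D19, 0 of 80 were called (0% of 19545 genes) and 28 had an unadjusted p under 0.05 (11.3% of genes), with a median of 0.82. *Rps12* had the highest value (1.26, SE 0.46, adjusted p = 0.40) and *Rpl4* the lowest (0.01, SE 0.22, adjusted p = 0.99). The median was 0.34 without mouse 811, and 0.67 with the prefix as a block, with 0 members called. DESeq2 called 0 members at D0 and 0 at D19, while over all genes it called 63 higher and 39 lower at D0 and 237 higher and 100 lower at D19.

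The values of *Rps12*, a protein of the small subunit, show the single libraries at D19. It had 2440, 2455, 731.9 and 737.7 CPM in KO colon (mice 811, 813, 803 and 804), against 619.3, 701.0, 732.2 and 694.1 CPM in WT colon. The KO libraries split into a high and a low pair, which differ in the prefix of their titles, and the low pair lay at the upper edge of the WT values. Without both high mice, 811 and 813, the median of the 80 members was -0.04, a value that describes the remaining libraries only, since mouse 813 was left out after its values were seen.

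At D80, 0 of 80 members were called (0% of 18899 genes) and 0 had an unadjusted p under 0.05 (5.55% of genes), with a median of -0.70. *Rps28* had the lowest value (-1.0, SE 0.58, adjusted p = 0.68) and *Rps10* the highest (0.11, SE 0.31, adjusted p = 0.88). Without WT mouse 581 the median was 0.04, and the 80 values ran from -0.10 to 0.18. In tumors 0 of 80 members were called (0% of 18961 genes), while 51 had an unadjusted p under 0.05 (6.61% of genes) and the median was 0.84. *Rps12* again had the highest value (1.31, SE 0.48, adjusted p = 0.70) and *Rpl4* the lowest (0.04, SE 0.18, adjusted p = 0.94). Without the tumor of KO mouse 544 the median was 0.11. DESeq2 called 0 members at D80, with 32 genes higher and 9 lower in all, and 0 members and 0 genes in tumors.

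**Figure D2:**
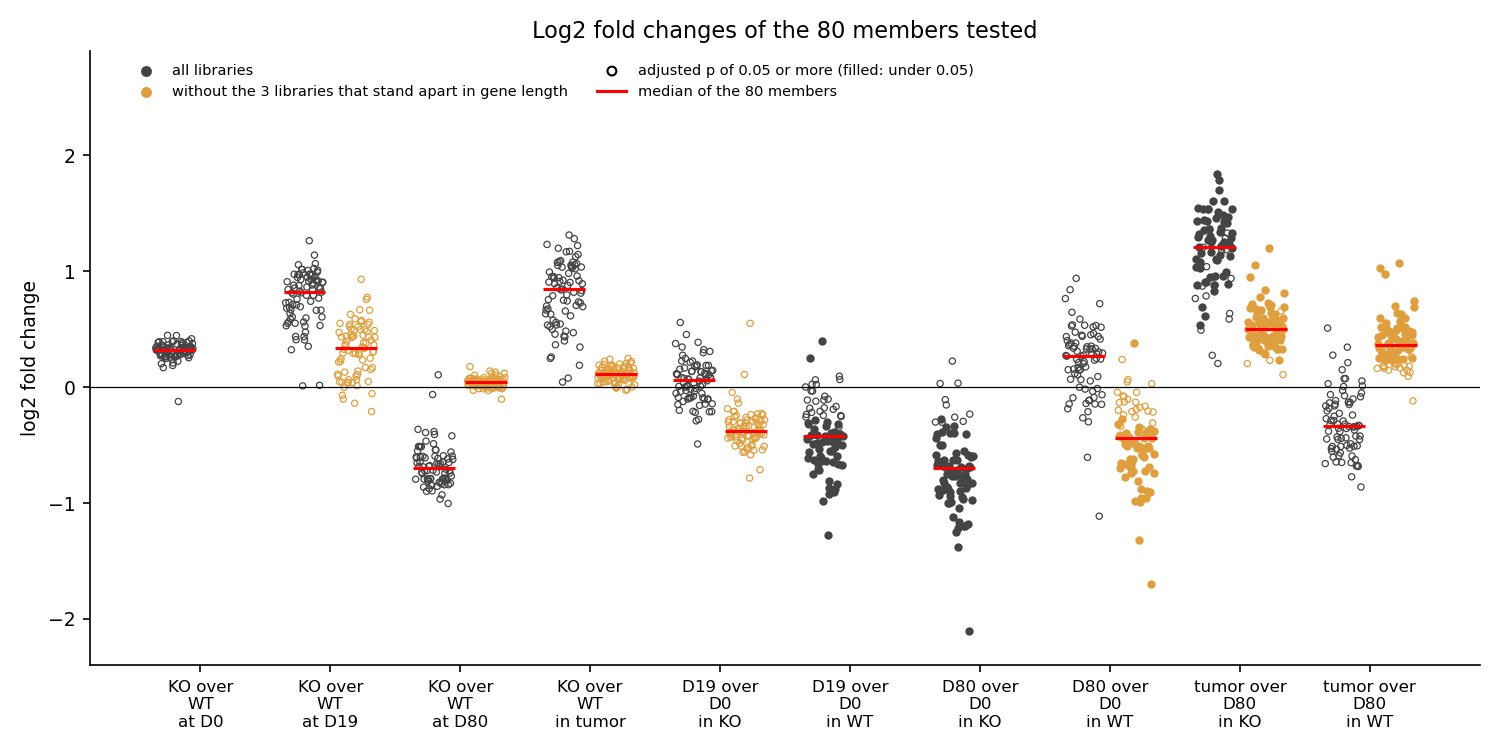
Log2 fold changes (vertical axis) of the 80 members tested in 10 comparisons (horizontal axis). Each point is 1 member, dark for all libraries and yellow without KO mouse 811 at D19, WT mouse 581 at D80 and the tumor of KO mouse 544, filled where the adjusted p was under 0.05, and red lines are medians, which at KO over WT in tumors are 0.84 with and 0.11 without the tumor of mouse 544.

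The change over the AOM/DSS course was measured against untreated colon of the same genotype. No title prefix of D0 occurs at D19 or D80. In every comparison with D0, also for the gene lists further down, stage and prefix therefore cannot be told apart. At D19 in WT mice, 52 of 80 members fell (22.6% of 18570 genes) and 2 rose (24.2% of genes), and the median log2 fold change was -0.42, against 0.00 over all genes. *Rplp2* fell most. It had 212.7, 217.3, 244.9 and 215.0 CPM at D19, against 538.3, 458.9, 556.3 and 534.7 CPM at D0, and the groups were far apart. Its log2 fold change was -1.27 (SE 0.10, adjusted p = 4.4e-05). *Rps13*, a small subunit protein, fell with -0.81 (SE 0.12, adjusted p = 4.7e-04). Among members that rose was *Rpl4*, a large subunit protein that lines the exit tunnel (0.40, SE 0.09, adjusted p = 0.0061). *Rpl4* had 1011, 1106, 1090 and 1057 CPM at D19, against 759.0, 848.1, 778.8 and 758.2 CPM at D0, again without overlap. With the slope of each library on exon length as a covariate 0 members were called (0.00539% of genes), 1 had an unadjusted p under 0.05 (16.2% of genes) and the median was 0.07. In a single fit of all 32 libraries *Rplp2* was the 1 member lower (6.09% of genes) and *Rpl4* the 1 member higher (11.8% of genes).

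Of the members with a known part in disease, *Rps19*, which is mutated in Diamond-Blackfan anemia in humans, fell at D19 in WT mice (-0.64, SE 0.13, adjusted p = 0.0024). *Rpl5* and *Rpl11*, which bind Mdm2 together with 5S rRNA when ribosome assembly fails, had -0.24 (SE 0.13, adjusted p = 0.14) and -0.24 (SE 0.10, adjusted p = 0.081). *Rps6*, the target of S6 kinase, had -0.25 (SE 0.11, adjusted p = 0.10). *Rplp0*, *Rplp1* and *Rpsa* fell, with -0.30, -0.46 and -0.42.

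In KO mice at D19, 0 of 80 members were called against D0 (13.0% of 19191 genes in either direction), 0 had an unadjusted p under 0.05 (23.6% of genes), DESeq2 called 0, and the median was 0.06. *Rplp2* was furthest below it among members. It had 665.6, 588.5, 239.5 and 234.4 CPM at D19, against 483.3, 795.2, 487.4 and 653.9 CPM at D0. Mice 803 and 804 lay below every D0 mouse, and mice 811 and 813 lay within the D0 range. Its log2 fold change was -0.49 (SE 0.39, adjusted p = 0.55). Without mouse 811 the median was -0.38 with 0 calls, and without mice 811 and 813 it was -0.76, with 58 members lower (17.0% of 19949 genes), a count with the same limit as above.

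At D80 in KO mice, 70 of 80 members fell (24.8% of 19031 genes) and 0 rose (28.4% of genes), and the median log2 fold change was -0.70, against 0.02 over all genes. The smallest adjusted p belonged to *Rps27l*, with 107.8, 99.6, 104.9 and 104.7 CPM at D80, against 175.7, 204.9, 166.9 and 177.5 CPM at D0. Every D80 library lay below every D0 library. Its log2 fold change was -0.84 (SE 0.09, adjusted p = 4.1e-05). *Rpl9*, a large subunit protein, fell to 553.9, 520.5, 472.0 and 563.1 CPM at D80, against 1137, 1574, 1107 and 1062 CPM at D0 (-1.25, SE 0.14, adjusted p = 7.4e-05), though 91.3% of its 75-base words are shared with other genes. The row furthest below the median was *Rps4l*, an annotated pseudogene related to the X-linked *Rps4x*, with 1.37, 2.57, 2.76 and 2.76 CPM at D80, against 10.2, 11.4, 10.98 and 6.60 CPM at D0 (-2.10, SE 0.26, adjusted p = 1.3e-04). *Rpl4* was the member furthest above it (0.22, SE 0.10, adjusted p = 0.089). *Rps6* (-0.60), *Rpl5* (-0.63), *Rpl11* (-0.44), *Rps19* (-0.96), *Rplp0* (-0.63), *Rplp1* (-0.71), *Rplp2* (-1.38) and *Rpsa* (-0.60) all fell. With the length slope as a covariate 44 members were lower (19.8% of genes) and 2 higher (22.1% of genes). In a single fit of all 32 libraries 11 were lower (11.7% of genes), a share near that of all genes.

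At D80 in WT mice, 0 of 80 were called with all libraries (12.9% of 18419 genes in either direction), 1 had an unadjusted p under 0.05 (25.9% of genes), DESeq2 called 1 and the median was 0.27. *Rpl30* was furthest above it (0.94, SE 0.50, adjusted p = 0.29). Leaving out mouse 581 turned the median to -0.44, with 54 members lower (23.3% of 18919 genes). *Rplp2* shows the same pattern in single libraries, with 723.5 CPM in mouse 581 and 220.8, 206.4 and 223.1 CPM in the other WT mice at D80. The row *Rps4l* had 7.32 CPM in mouse 581 and 2.08, 3.02 and 2.53 CPM in the other 3, against 6.55 to 9.64 CPM in WT mice at D0. It was not called with all libraries (-1.11, SE 0.41, adjusted p = 0.12) and fell without mouse 581 (-1.70). At D19 the *Rps4l* level was 6.03 to 11.6 CPM in KO and 7.31 to 10.2 CPM in WT mice, so its lower level was seen at D80 and not at D19.

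**Figure D3:**
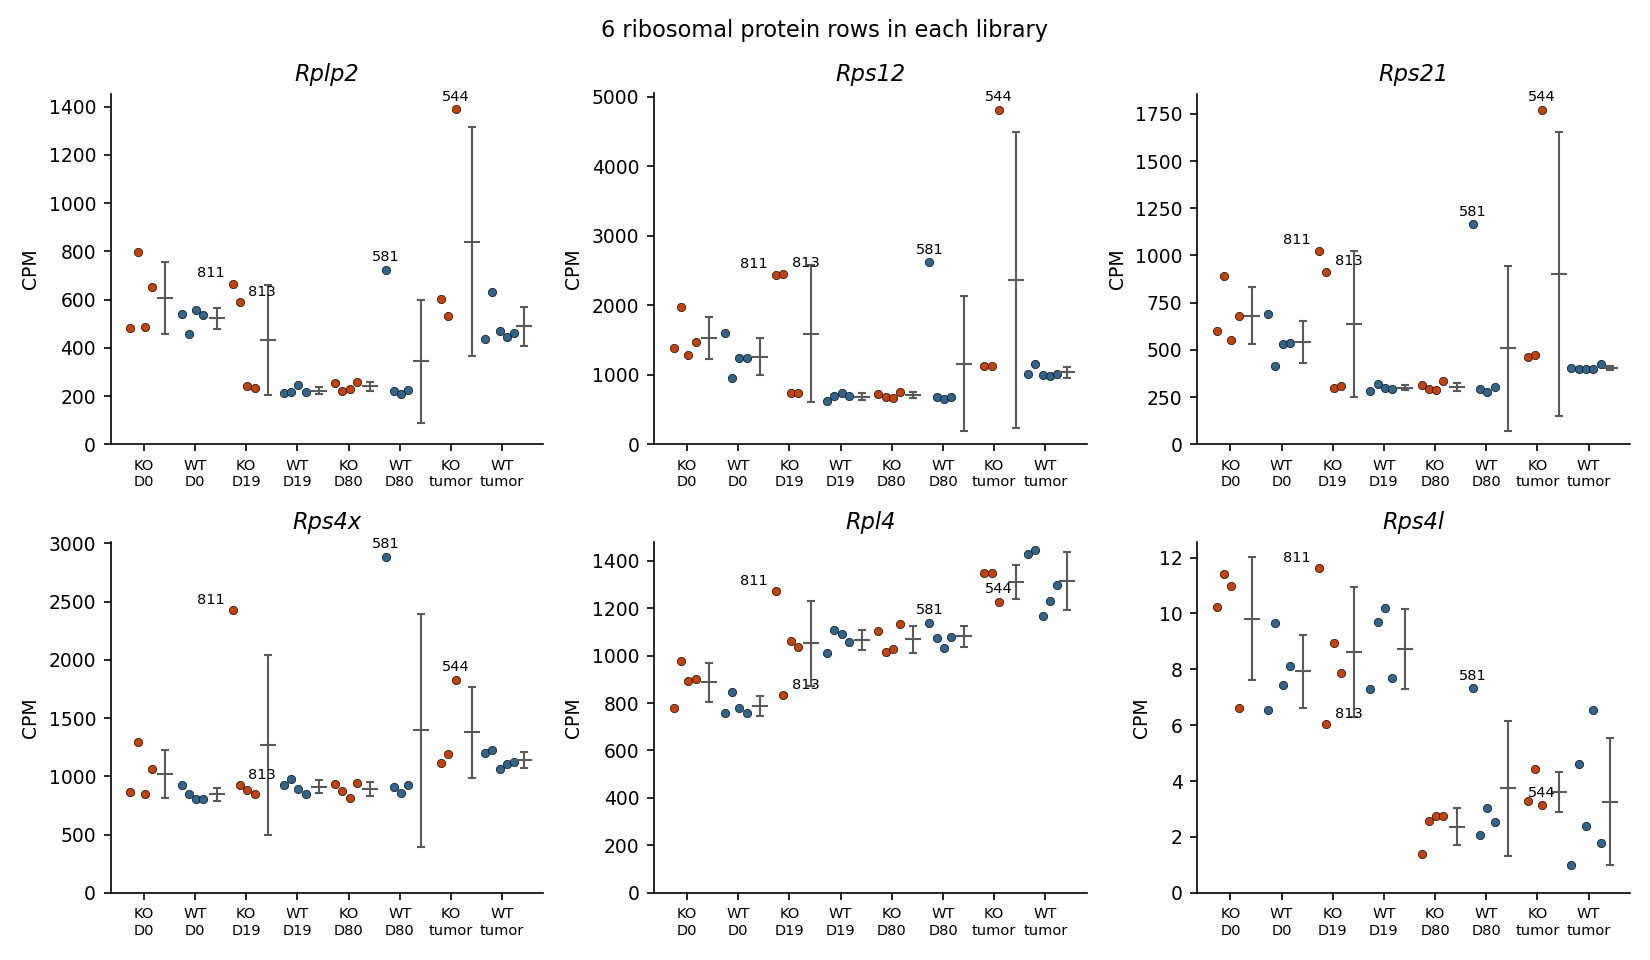
Level of 6 members (CPM scaled by TMM, vertical axes) in each of 32 libraries by group (horizontal axes), with KO in red and WT in blue, and group mean and SD beside the points. *Rplp2*, *Rps12* and *Rps21* are lower at D19 and D80 than at D0 outside mice 811, 813 and 581, *Rpl4* is not, and *Rps4l* is at 1.37 to 3.02 CPM at D80 outside mouse 581.

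The difference between genotypes in these changes was tested as an interaction. For D19 over D0, KO minus WT, 0 of 80 members were called (0.0298% of 20149 genes) and 0 had an unadjusted p under 0.05 (8.15% of genes), with a median of 0.49 and 0.03 without mouse 811. The values ran from -0.30 in *Rps4l* to 0.97 in *Rps12*. For D80 over D0, 0 were called (0% of 19668 genes) and 7 had an unadjusted p under 0.05 (7.84% of genes), with a median of -0.94 and -0.25 without mouse 581. For tumor over D80, 0 were called (0% of 20391 genes), 67 had an unadjusted p under 0.05 (11.7% of genes), and the median was 1.58. Without mouse 581 and the tumor of mouse 544 it was 0.07. DESeq2 called 0 members in all 3. The calls in one genotype and not in the other are thus not shown to be a difference between genotypes.

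Tumors were set against D80 whole colon of the same genotype. In KO mice 62 of 80 members rose (21.8% of 19457 genes) and 0 fell (24.7% of genes), and the median log2 fold change was 1.21, against 0.01 over all genes. *Rpl24* had the smallest adjusted p, with 36.6, 37.6 and 76.2 CPM in tumors, against 18.6, 16.1, 16.8 and 18.3 CPM in D80 colon (1.54, SE 0.29, adjusted p = 0.0046), and it is one of the rows that overlaps another gene. *Rplp2* had 602.7, 529.8 and 1389 CPM in tumors, against 253.8, 219.0, 228.2 and 258.2 CPM in D80 colon (1.83, SE 0.37, adjusted p = 0.0057), and it had the largest fold change of the 80 members. *Rpl13a*, which also overlaps another gene, followed (1.55, SE 0.37, adjusted p = 0.011). In each of the 3 the tumor of mouse 544 was at least 2-fold above the other tumors, which were themselves above every D80 colon. *Rps10* was furthest below the median (0.20, SE 0.32, adjusted p = 0.63). Without the tumor of mouse 544, 76 members rose (27.8% of 19942 genes) with a median of 0.50. The count rested on each KO D80 library. Without mouse 527 it was 9 (15.1% of genes), without mouse 535 9 (14.0%), without mouse 543 8 (13.0%) and without mouse 544 13 (13.7%), all higher and near the share of all genes, with medians of 1.18 to 1.24. In this genotype 3 mice gave both a tumor and D80 colon, and with the mouse as a replicate block 5 members rose (10.6% of genes), with a median of 0.93. With the length slope as a covariate 8 rose (17.5% of genes), with a median of 0.11.

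In WT mice 0 of 80 members were called between tumor and D80 colon with all libraries (12.4% of 19007 genes higher and 17.2% lower), 0 had an unadjusted p under 0.05 (41.2% of genes), DESeq2 called 0, and the median was -0.34. *Rpl13a* was furthest above it (0.51, SE 0.33, adjusted p = 0.28) and *Rps7* furthest below (-0.86, SE 0.41, adjusted p = 0.15). WT mouse 581 gave D80 colon and no tumor library. Without it 62 members rose (26.2% of 19697 genes) and 0 fell, with a median of 0.36. With the mouse as a replicate block, which pairs tumor and colon of mice 541, 542 and 555, 41 rose (23.0% of 19007 genes) with a median of 0.38. *Rplp2* had 437.8, 630.0, 470.0, 443.0 and 462.7 CPM in WT tumors, against 723.5 CPM in mouse 581 and 206.4 to 223.1 CPM in the other 3 D80 colons. *Rps6* had 1137 to 1320 CPM in WT tumors, against 2150 CPM in mouse 581 and 787.6 to 822.0 CPM in the other D80 colons.

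To describe single members apart from the level of the whole family, each member was also measured relative to the summed counts of the family. In WT mice at D19 over D0, 15 members were lower (6.31% of genes on this scale) and 13 higher (43.6% of genes). In KO mice at D80 over D0, 21 were lower (4.46% of genes) and 18 higher (58.1% of genes). The scale sets the family's sum equal in every library, so where the family fell more of all other genes are higher by construction. These 2 comparisons share no library, but both are set against D0, where the genotypes had like ratios of *Rplp2* to *Rpl4* raw counts. The ratio was 0.546 to 0.814 in KO and 0.541 to 0.714 in WT mice at D0. It was 0.196 to 0.225 in WT mice at D19 and 0.216 to 0.230 in KO mice at D80. Outside these 2 comparisons it was 0.523 and 0.705 in KO mice 811 and 813 at D19 and 0.636 in WT mouse 581 at D80, near or within the D0 ranges. The other KO mice at D19 had 0.225 and 0.226, and the other WT mice at D80 had 0.200 to 0.207. Mice 811 and 581 are among the libraries in which short genes were counted more. The comparisons shared 12 of the lower members, which are 80% of those in WT and 57.1% of those in KO mice, and 13 of the higher members, which are 100% and 72.2%. No member was higher in one and lower in the other. No overlap over all genes and no fit with the length slope is given on this scale. *Rplp2* was lower (-0.90, SE 0.12 in WT mice at D19, and -0.70, SE 0.09 in KO mice at D80), as were *Rpl41* (-0.59 and -0.45), *Rps12* (-0.52 and -0.49), *Rps21* (-0.51 and -0.52), *Rps24* (-0.48 and -0.52) and *Rps13* (-0.42 and -0.38). Shared lower members were also *Rpl32l*, *Rpl34*, *Rpl35a*, *Rps9* and *Rps28*. *Rpl4* was higher (0.76, SE 0.12 and 0.88, SE 0.10), and so were *Rps4x* (0.44 and 0.44), *Rpl29* (0.44 and 0.55), *Rpl30* (0.41 and 0.52), *Rpl23* (0.40 and 0.37), *Rpl10* (0.38 and 0.36) and *Rpl23a*, *Rpl21*, *Rpl7*, *Rpl13*, *Rpl6* and *Rpl3*. Of the 13 higher members 12 belong to the large subunit, as do 51 of all 83 members. Among the shared lower members *Rplp2*, *Rpl41*, *Rpl32l*, *Rpl34* and *Rpl35a* are named for the large subunit too. Whether the departures differ by subunit was not tested. Members with short transcripts tended to be lower. Spearman's rho between log2 fold change and transcript length over the 80 members was 0.43 in WT mice at D19 over D0 and 0.43 in KO mice at D80 over D0, as a description over genes that share libraries.

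**Figure D4:**
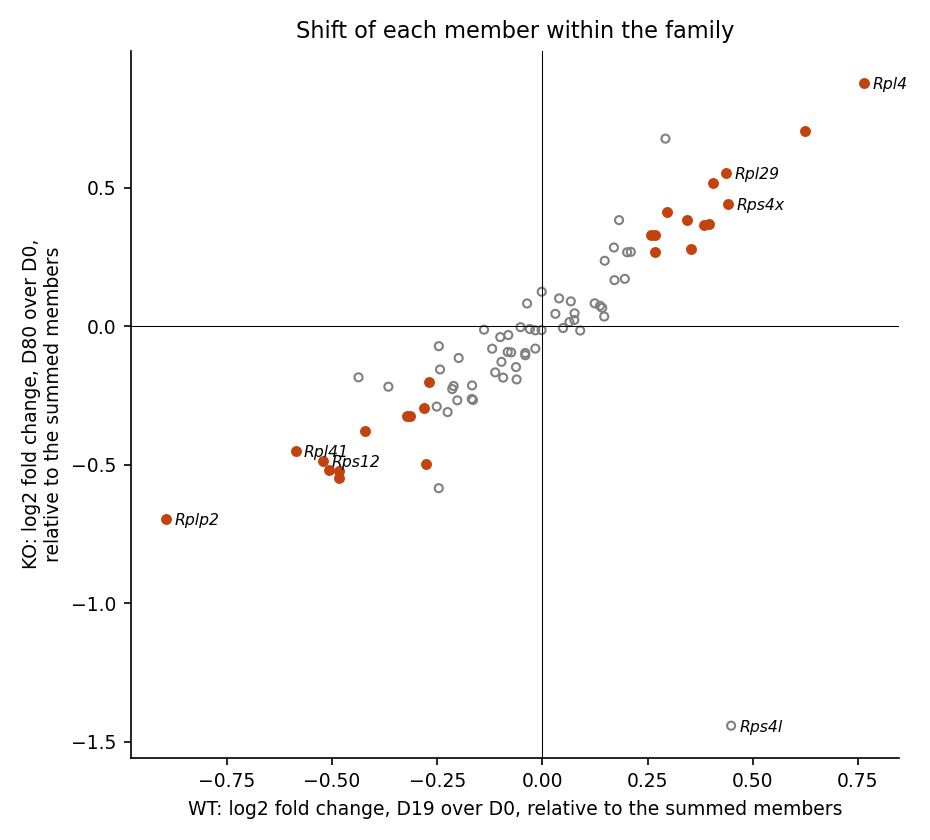
Log2 fold change of each of 80 members relative to the summed members, in WT mice at D19 over D0 (horizontal axis) and in KO mice at D80 over D0 (vertical axis), which share no library. Filled points had an adjusted p under 0.05 in both, with *Rplp2* lowest (-0.90 and -0.70) and *Rpl4* highest (0.76 and 0.88) among them.

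In the other comparisons on this scale fewer members stood out with all libraries. At D80 over D0 in WT mice *Rplp2* (-0.90) and *Rpl41* (-0.54) were among 3 members lower with all libraries (0.776% of genes). Without mouse 581, 15 were lower (6.95% of genes) and 11 higher (43.4% of genes). In tumor over D80, *Rplp2* was the 1 member higher in KO (0.69, SE 0.19, adjusted p = 0.029, with 1.17% of genes higher) and the 1 higher in WT mice (0.67, SE 0.14, adjusted p = 0.014, with 3.24% of genes higher). *Rps7* was the 1 lower in WT mice (-0.51, SE 0.14, adjusted p = 0.042, with 9.55% of genes lower). Without the tumor of mouse 544 and without mouse 581, *Rplp2* had 0.70 in KO and 0.69 in WT mice. The counts of members called in tumor over D80 on this scale without these libraries are not given.

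The libraries that stand high did so in different members. *Rps4x*, the X-linked small subunit protein, had 2423 CPM in KO mouse 811 at D19 and 2886 CPM in WT mouse 581 at D80, against 801.3 to 1829 CPM in the other 30 libraries. *Rpl30* had 818.3 and 1097 CPM in these 2 libraries. In KO mouse 813 at D19, *Rps4x* was 924.1 CPM, within the range of the WT mice at D19, while *Rps12* was 2455 CPM. The tumor of KO mouse 544 had 4813 CPM of *Rps12* and 1773 CPM of *Rps21*, with 1829 CPM of *Rps4x*. As a ratio of raw counts, *Rps4x* to *Rps12* was 0.993 in mouse 811 and 1.10 in mouse 581, and 0.376 in mouse 813 and 0.380 in tumor 544. In the other libraries of D19, D80 and tumors it was 0.994 to 1.496, and at D0 0.624 to 0.716 in KO and 0.576 to 0.889 in WT mice. *Rpl4* stayed between 758.2 and 1444 CPM in all 32 libraries. The cause of these differences was not tested.

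**Figure D5:**
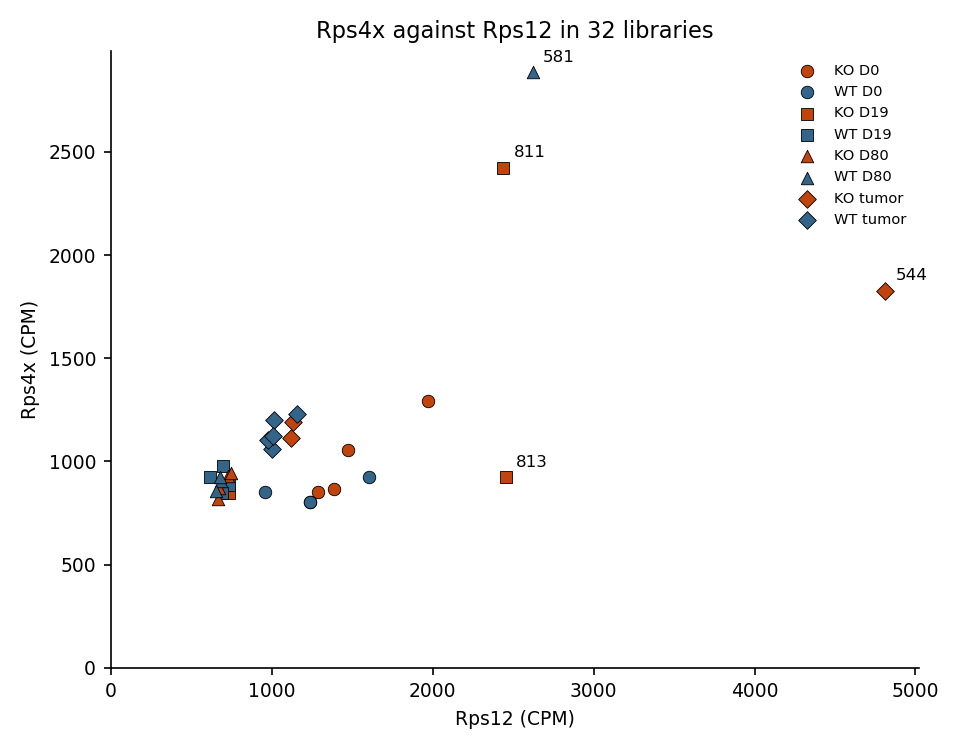
*Rps4x* (CPM, vertical axis) against *Rps12* (CPM, horizontal axis) in 32 libraries, with KO in red, WT in blue and a symbol for each stage. Mice 811 and 581 are high in both, at 2423 and 2886 CPM of *Rps4x*, while mouse 813 and tumor 544 are high in *Rps12* (2455 and 4813 CPM) with 924.1 and 1829 CPM of *Rps4x*.

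Genes that act with the ribosomal proteins were described from lists of genes, beside the shares of all genes that were called. No list value is given with the length slope as a covariate, which changed the members' calls and median at D19 in WT mice. Of 36 ribosome biogenesis genes, which make and process rRNA, 19 rose (24.2% of all genes) and 4 fell (22.6%) at D19 in WT mice, with a median of 0.40 while that of the members was -0.42. At D80 in KO mice 21 rose (28.4% of all genes) and 2 fell (24.8%), with a median of 0.61 while that of the members was -0.70. *Ncl*, the nucleolar protein nucleolin, rose in both (0.79 and 1.14), as did *Tsr1*, a factor of small subunit maturation (1.14 and 0.89). In tumor over D80 in KO mice 13 rose (21.8% of all genes) and 2 fell (24.7%), and without the tumor of mouse 544, 28 rose (27.8%) and 2 fell (28.0%). In WT mice 17 rose (12.4%) and 0 fell (17.2%), and without mouse 581, 27 rose (26.2%) and 2 fell (28.7%). *Gar1*, a protein of the H/ACA particles that modify rRNA, led with 1.56 in both, and had 1.68 in KO and 1.76 in WT mice without these libraries.

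Of 18 translation factors, many of which have TOP mRNAs, 5 rose and 7 fell at D19 in WT mice and 4 rose and 7 fell at D80 in KO mice, and the counts that rose lie near the shares of all genes, 24.2% and 28.4%. The counts that fell lie above the shares of all genes that fell, which are given with the biogenesis genes. This difference was not tested. In KO tumors over D80 colon 10 rose (21.8% of all genes), and 10 without the tumor of mouse 544 (27.8%). In WT tumors 3 rose (12.4%), and 10 without mouse 581 (26.2%). *Eif3f* was among those that fell at D19 in WT mice (-0.56) and rose in tumors (1.07 in KO and 0.87 in WT mice, and 0.97 and 0.90 without these libraries). *Myc* rose in tumors (0.75 in KO and 1.68 in WT mice, and 0.95 and 1.37 without them).

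Of 77 nuclear genes for mitochondrial ribosomal proteins, which build a separate ribosome, 56 fell (22.6% of all genes) and 2 rose (24.2%) at D19 in WT mice, with a median of -0.46. At D80 in KO mice 64 fell (24.8%) and 1 rose (28.4%), with a median of -0.55. In KO tumors over D80 colon 57 rose (21.8%), and 65 without the tumor of mouse 544 (27.8%). In WT tumors 1 rose (12.4%), and 42 without mouse 581 (26.2%). The 13 mitochondrially encoded mRNAs all fell at D19 in WT mice and at D80 in KO mice. The 9 ribosomal proteins outside the symbol rule, such as *Fau*, which is made as a fusion with a ubiquitin-like protein, had 5 members lower at D19 in WT mice (22.6% of all genes) and 7 lower at D80 in KO mice (24.8%). In KO tumors 5 were higher (21.8%), and 7 without the tumor of mouse 544 (27.8%).

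Markers of other cell types moved in the same comparisons, beside the shares of all genes given above. All 10 smooth muscle markers fell at D19 in WT mice, at D80 in KO mice and in tumors of both genotypes, and their summed level was 178.2 to 281.4 CPM in KO and 191.8 to 807.5 CPM in WT tumors, against 2382 to 3759 CPM in KO and 3839 to 4798 CPM in WT colon at D80. At D0 the sum was 5216 to 9828 CPM in KO and 7276 to 13782 CPM in WT colon, and at D19 it was 3115 to 5693 CPM in KO and 4221 to 6653 CPM in WT colon. The 10 epithelial markers summed to 7221 to 9901 CPM in KO and 8776 to 11142 CPM in WT colon at D19, against 10738 to 18152 CPM in KO and 10875 to 18961 CPM in WT colon at D0, and 5 of the 10 fell at D19 in WT mice. Neutrophil markers summed to 349.8 to 663.1 CPM in KO and 10.6 to 161.0 CPM in WT colon at D19, against at most 3.32 CPM in KO and 4.09 CPM in WT colon at D0. The sums were not tested between genotypes, and edgeR called no single gene between genotypes at D19. B and plasma cell markers rose in 6 of 6 at D80 in KO mice and fell in 6 of 6 in KO tumors over D80 colon, and T cell markers rose in 7 of 7 at D80 in KO mice. None of the smooth muscle, epithelial, neutrophil, T cell or B and plasma cell markers was at 0 in every library of a group. The part of these changes in tissue makeup in the ribosomal protein levels was not tested.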

How the data were processed

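Bulk RNA-Seq of 32 libraries (8 groups) was used. The deposited values are counts per gene, which the authors made with subread after STAR alignment to mm10. Reads were single-end, 75 nt long, and had passed through FastQC 0.11.5. The counts are raw whole numbers, every column was matched to a sample, and alignment was not repeated. The library kit was Illumina TruSeq RNA. Total counts ranged from 18951121 to 47623288, and each library is a separate mouse or tumor.

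Tests used edgeR 4.0.16 in R 4.3.3 (quasi-likelihood F-test, TMM, filterByExpr) on the groups compared, fitted over all genes, with Benjamini-Hochberg adjustment over all genes tested. SEs are those of the log2 fold change. CPM was scaled with TMM factors from the full set of 32 libraries. Scripts were tested on simulated data with 200 changed genes. Gene positions and overlaps are from GENCODE mouse release 21 on GRCm38, and start sequences from RefSeq on GRCm38.p6.

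The members and all lists were chosen with earlier results of these data known. Named are, in each comparison, up to 3 called members in each direction with the smallest adjusted p and the members furthest above and below the median (mean of at least 1 CPM), the 5 highest and 5 lowest per length, the paralogs and their partners, the stalk genes and *Rpsa*, *Rps6*, *Rpl5*, *Rpl11*, *Rps19*, members called against the summed members, up to 3 genes of other lists, and *Dnase1l3*. Some genes that the rule names are not reported here. *Rps18* in the sequence display falls outside this rule and was chosen after its values were seen.

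Tumor and D80 colon of 3 KO and 3 WT mice share a mouse number, so same-numbered samples come from the same animal. Their deviations from the group means correlated with r = 0.08, 0.06 and 0.12 in KO and 0.03, 0.08 and 0.20 in WT mice over 21468 genes. Alternatives were RLE size factors, DESeq2 1.42.0, no filter, at least 10 counts in each library, a single fit of all libraries, the slope of each library on exon length as a covariate (from 10123 genes without the members), scaling without members and mitochondrial genes or to the summed members, pseudogene rows added, the thresholds of the study (adjusted p under 0.05 and fold over 2, between tumors unadjusted p under 0.01), the label prefix or the mouse as a block, and leaving out libraries. Added after the data were seen were the fit without edgeR's legacy option, the omission of KO mice 811 and 813 at D19 (813 for its high members, so these counts only describe the remaining libraries), the summed-member scale without libraries, and the share of counts without the 3 libraries.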

Additional observations from a re-analysis of the deposited data

Results flagged for a closer look

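Among 49 sets of group values tested for a sample far from the others (the share of counts and 6 members in each group of 4 or 5), 11 stood out, where chance gives about 1 in 20 for each set alone. The sets share libraries and are not independent, so a single library can stand out in several of them. WT mouse 581 at D80 accounted for 5 of them, with a share of 7.28%, 5144 CPM of *Rplp0*, 724 CPM of *Rplp2*, 2150 CPM of *Rps6* and 2622 CPM of *Rps12*. At D0 the highest shares stood out, 6.63% in KO mouse 853 and 5.37% in WT mouse 851. *Rplp2* was high in WT mouse 805 at D19 (245 CPM), and *Rps4l* was low in KO mouse 527 at D80 (1.37 CPM). In WT tumors, that of mouse 541 was high in *Rplp2* (630 CPM) and *Rps12* (1160 CPM). Groups of 3, such as the KO tumors, were not tested this way.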

How the results depend on the processing

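Values for members share reads with pseudogenes and other genes, and tissues differ in cell makeup. P-values measure the spread between single libraries, and 3 KO and 3 WT mice gave both a tumor and a D80 library. Over all alternatives, 263 counts of members called stayed within 1.5 times the reported count and 27 did not. In most comparisons the reported count was 0, and counts that stayed at 0 are among the 263. The 263 therefore say little about the comparisons with calls. At D19 over D0 in WT mice (54 members called) the count was 2 in a single fit, 28 on the summed-member scale, 0 with the length slope and 1 with the thresholds of the study. At D80 over D0 in KO mice (70) these were 11, 39, 46 and 11. At D80 over D0 in WT mice (0) it was 1 with DESeq2, 1 in a single fit, 3 on the summed-member scale, 44 with the length slope and 55 without the libraries that stand apart, and 0 to 55 with each library left out. In tumor over D80 in KO mice (62) it was 1 on the summed-member scale, 8 with the length slope and 8 to 76 with each library left out, and with the mouse as a replicate block it was 5. In tumor over D80 in WT mice (0) the counts were 2 and 29, 62 without mouse 581, 0 to 62 with each library left out, and 41 with the replicate block. Without KO mice 811 and 813, 58 members were called at D19 over D0 in KO mice. The share of counts from members averaged 5.40%, and 7.808% with pseudogene rows added. With the label prefix as a block the count of members called stayed at 0 between genotypes. The cause of these changes was not tested.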
